A study of Mus musculus with 8 samples.

Results

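Transcripts annotated as retained-intron forms of 9 protein-coding genes (Ctnnb1, Tet2, Pan2, Idh3g, Acbd5, Ccdc28b, Tecpr1, Cog7 and Prpf40b) were followed in mouse neural stem cells with a short hairpin RNA against the long non-coding RNA Paupar (shPaupar) and in control cells. The 9 rows were taken by gene name from the authors' deposited comparison table, which holds 155 distinct features. They were chosen because their levels differed between the groups, so their differences are given as a description. The cells came from the subventricular zone of the mouse brain, grew with EGF and FGF-2, and were nucleofected. There are 4 shPaupar and 4 control samples, and the labels do not state what the control cells received, the strain or age of the mice, or whether the samples of a group are separate cultures. The authors' deposited table gives 1 level per group, so no value per sample, standard deviation or depth can be shown, and neither the knockdown of Paupar nor the cell type could be checked from these rows.

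An intron is removed when the spliceosome joins the exons at its ends, and it usually begins with GT at the 5′ splice site and ends with AG at the 3′ splice site. A transcript that keeps intronic sequence commonly meets a stop codon early, and such RNA may stay in the nucleus or be degraded by nonsense-mediated decay. Regulated intron retention is known from neuronal differentiation, where it lowers the output of spliced messenger RNA from some genes. In the GENCODE annotation, the class retained intron is given to a transcript that contains intronic sequence relative to coding transcripts of the same gene, whether it keeps a complete intron or only begins or ends inside one. Libraries here were made after removal of ribosomal RNA and without selection of poly(A) tails, so incompletely spliced RNA could also enter the measurements.

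The rows were chosen as retained-intron transcripts, so their match to the annotation describes them and is not a test. In all 9 rows the locus equalled, at both ends, a retained-intron transcript of the named gene in GENCODE M21 (mouse assembly GRCm38) and not the span of the whole gene. For 8 of the 9 genes 1 transcript matched. For Prpf40b 2 transcripts, Prpf40b-206 and Prpf40b-209, have the same ends, and the row cannot be given to either of them. No protein-coding transcript lay within 10 bases of a row's locus at both ends (0 of the 9 genes).

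Only 3 of the 9 genes had a transcript with a complete coding intron between exons, and the others began or ended in an intron. The 3 are Tecpr1, Prpf40b and Acbd5. Over all 21413 retained-intron transcripts of protein-coding genes in the annotation with a coding transcript to compare, 30.2% hold such an intron. Although Acbd5-216 and Prpf40b-209 also have other bases outside coding exons, the kept introns are shown as sequence that spliced mRNA lacks. They are given 5′ to 3′ in lower case on the transcribed strand of GRCm38, and capitals mark the first stop codon in the reading frame of the upstream coding exon, where the intron has one.
Tecpr1-209, intron 3 of 24 (chr5:144217026-144217225, minus strand): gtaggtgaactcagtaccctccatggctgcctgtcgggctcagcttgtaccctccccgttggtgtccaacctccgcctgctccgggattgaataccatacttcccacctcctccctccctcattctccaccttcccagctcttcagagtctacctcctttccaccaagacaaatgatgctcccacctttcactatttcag
Prpf40b-206 and Prpf40b-209, intron 17 of 25 (chr15:99309800-99309943, plus strand): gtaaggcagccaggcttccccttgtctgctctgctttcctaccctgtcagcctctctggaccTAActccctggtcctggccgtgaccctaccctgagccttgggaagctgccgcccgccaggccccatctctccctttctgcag
Prpf40b-209 only, intron 20 of 25 (chr15:99314981-99315190, plus strand): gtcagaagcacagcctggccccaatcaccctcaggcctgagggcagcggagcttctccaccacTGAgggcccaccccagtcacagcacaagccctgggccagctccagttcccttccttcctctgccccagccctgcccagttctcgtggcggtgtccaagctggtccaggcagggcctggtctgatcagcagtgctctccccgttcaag
Acbd5-216, a coding-transcript intron inside intron 5 of the principal Acbd5-203 (chr2:23080454-23080667, plus strand): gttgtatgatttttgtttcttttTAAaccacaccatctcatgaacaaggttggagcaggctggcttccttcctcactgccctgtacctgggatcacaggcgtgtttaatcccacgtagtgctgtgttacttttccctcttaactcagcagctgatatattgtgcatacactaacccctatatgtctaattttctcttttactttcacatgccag

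The kept introns were short, 200 bases in Tecpr1, 144 and 210 bases in Prpf40b and 214 bases in Acbd5. Their base composition differed, from 42.5% G and C in Acbd5 to 65.2% in the second Prpf40b intron, with 55.0% in Tecpr1. Read on in the frame that a coding transcript gives the upstream exon, the Prpf40b introns held a stop that ended 65 and 66 bases past the exon. In the Acbd5 intron the stop ended 26 bases past it. The Tecpr1 intron had no stop in the frame of its upstream exon, and the first stop in that frame ended 798 bases past the exon end, in a later exon.

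The other 6 transcripts cross an exon border on 1 side only and then start or stop within intronic sequence. Transcripts of Ctnnb1, Tet2, Ccdc28b and Idh3g begin in an intron and run through its 3′ splice site, while those of Pan2 and Cog7 run through a 5′ splice site and end in the intron. Acbd5-216 also ends this way, after its kept intron and a short coding exon. The splice sites that these transcripts read through follow here because each is the border between shared exon and intronic sequence, with 6 exon bases, 12 intron bases at a 5′ site or 20 at a 3′ site, and the intron's GT or AG in capitals.
Pan2-207, 5′ splice site of intron 2 of 25 (chr10:128304488-128304505, plus strand): catgggGTaagaactata
Cog7-202, 5′ splice site of intron 15 (chr7:121929175-121929192, minus strand): agcaagGTaagagaacca
Acbd5-216, second 5′ splice site (chr2:23080695-23080712, plus strand): tagaagGTaggaataatg
Ctnnb1-215, 3′ splice site of intron 14 of 14 (chr9:120959289-120959314, plus strand): ggacaccctgactcctacAGatccca
Tet2-209, 3′ splice site of intron 7 of 10 (chr3:133473680-133473705, minus strand): gttgaatcatttttgtacAGgaagag
Tet2-209, 3′ splice site in intron 9 of 10, at the 128-base stretch (chr3:133469634-133469659, minus strand): acatctcacatccgcttcAGgtggtc
Idh3g-202, 3′ splice site of intron 7 of 12 (chrX:73780702-73780727, minus strand): gtcccctggcctcttctcAGagcgta
Ccdc28b-206, 3′ splice site of intron 3 of 5 (chr4:129620871-129620896, minus strand): taaactcaagagttgtccAGggaagg

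All 7 distinct 5′ splice sites read through by the 9 rows began with GT, and all 9 distinct 3′ splice sites ended with AG. In the 18 bases before the AG, pyrimidines numbered 15 in Idh3g, 11 in Ctnnb1, 11 and 13 at the Tet2 sites of introns 7 and 9, and 9 in Ccdc28b. The Ccdc28b site thus had the fewest pyrimidines of the 9 sites. A stop codon in the frame of the upstream exon followed 6 of the 7 distinct 5′ splice sites inside the intronic stretch. These stops ended between 23 bases (Cog7) and 66 bases (Prpf40b) past the exon. The frame was that of a coding transcript of the gene, and the frame of the retained-intron transcript itself was not followed. The Cog7 transcript has an extra exon of 149 bases before its site, which is not a whole number of codons. It need not reach the site in the coding frame. The stops at the later Prpf40b and Acbd5 sites lie after an earlier such stop in the same transcript.

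The share of each transcript that lies outside coding exons varied widely, which bears on what a level of the row can hold. Bases outside all exons of the gene's protein-coding transcripts made up 85.5% of Pan2-207 (2915 of 3410 bases) and 48.3% of Acbd5-216 (681 of 1410 bases). The share was 22.1% for Idh3g-202, 19.8% for Tet2-209 and 16.8% for Cog7-202. It was 9.11% for Ccdc28b-206 (39 of 428 bases), 7.20% for Ctnnb1-215 (93 of 1292 bases), and 4.62% for Tecpr1-209 (200 of 4329 bases). For the Prpf40b row it was 5.26% or 18.4%, depending on whether it is Prpf40b-206 or Prpf40b-209. The remaining bases, 92.8% in Ctnnb1-215 and 95.4% in Tecpr1-209, also belong to exons of coding mRNA. Reads from them can be divided between the transcripts only by the authors' quantification, so these single levels are uncertain, and how far that division bears on the differences was not tested.

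**Figure D1:**
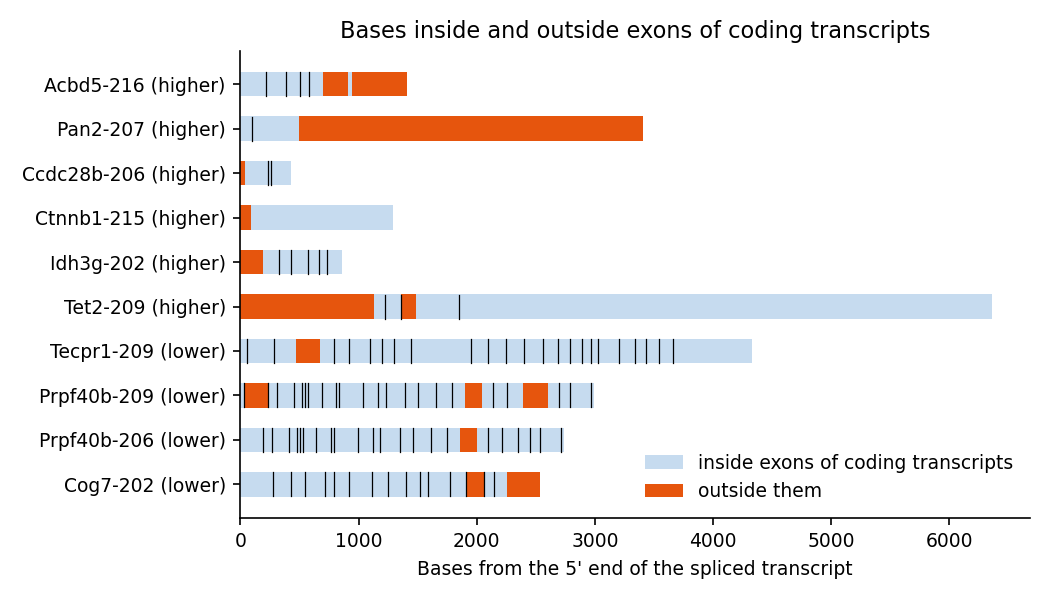
Spliced retained-intron transcripts drawn to scale, with bases from the 5′ end on the x axis, bases inside exons of the gene's coding transcripts in light blue, bases outside them in orange, and exon borders as black lines. Pan2-207 is mostly orange (85.5%), whereas Tecpr1-209 has a single orange stretch of 200 bases in 4329.

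Of the 9 transcripts, 6 were higher and 3 were lower in shPaupar cells. Among all 155 features of the authors' deposited table, 34.8% were higher and 65.2% were lower, and since the 9 rows were picked from that list, nothing is read from the contrast. All 9 had an adjusted p of at most 0.05 in the authors' deposited table, as did 100% of its features. The samples are bulk RNA, so fewer cells of a type and less RNA per cell cannot be told apart. At a threshold of 0.01 there were 6 of 9, against 60.6% of all features in the authors' deposited table.

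Ctnnb1 encodes beta-catenin, which carries the canonical Wnt signal to the nucleus and also links cadherins to the cytoskeleton. Its transcript Ctnnb1-215 (chromosome 9, 120959216 to 120960507) is a single exon that begins 93 bases before the last exon of the coding Ctnnb1-201 and shares its 3′ end. The authors' deposited table lists Ctnnb1-215 at a level of 2513 for shPaupar cells, against 108 for control cells, a ratio of 23.3 (log2 4.54, adjusted p 0.0290). It had the highest shPaupar level of the 9. The intronic 93 bases, shown because they are all that sets this transcript apart from the coding exons, run up to the 3′ splice site given above.
Ctnnb1-215, its first 93 bases (chr9:120959216-120959308, plus strand): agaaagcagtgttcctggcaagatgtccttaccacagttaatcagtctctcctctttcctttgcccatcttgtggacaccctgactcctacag

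Tet2 encodes a dioxygenase that oxidizes 5-methylcytosine in DNA, a step toward demethylation. Tet2-209 (chromosome 3, 133463683 to 133474819) has 4 exons and covers 55.6% of the exon bases of the principal coding transcript Tet2-201, beginning with 1134 bases of intron 7. A second intronic stretch of 128 bases in intron 9 starts at a different splice site and runs through the usual 3′ splice site of that intron. The authors' deposited table has levels of 1032 for shPaupar and 59.5 for control cells (ratio 17.4, log2 4.12, adjusted p 0.00122).

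Pan2 encodes the catalytic subunit of the PAN2-PAN3 complex, which shortens poly(A) tails. Pan2-207 (chromosome 10, 128303376 to 128307408) starts in the first exon of the gene, splices once and then runs through the 5′ splice site of intron 2 into 2915 bases, or 81.6%, of that intron. Its level in the authors' deposited table was 249 for shPaupar cells, against 5.59 for control cells (ratio 44.6, log2 5.48). Its adjusted p of 3.72e-09 was the smallest of the 9 in the authors' deposited table. In the coding frame a stop codon TGA followed, ending 30 bases past the exon end.

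Idh3g encodes the gamma subunit of the mitochondrial NAD-dependent isocitrate dehydrogenase of the citric acid cycle. Idh3g-202 (chromosome X, 73779043 to 73780897) begins at the first base of intron 7 and holds all 190 bases of it, followed by 5 further exons. Per the authors' deposited table, shPaupar cells had a level of 328 and control cells 15.1 (ratio 21.8, log2 4.44, adjusted p 0.000552).

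Acbd5 encodes a peroxisomal membrane protein that binds acyl-CoA and tethers peroxisomes to the endoplasmic reticulum. Acbd5-216 (chromosome 2, 23069067 to 23081167) joins 4 exons to a last exon of 829 bases that contains the kept intron, a short coding exon and 467 bases of the next intron. In the authors' deposited table, its level was 45.9 for shPaupar cells, against 0.962 for control cells (ratio 47.7, log2 5.58, adjusted p 0.000685). This ratio of levels was the largest of the 6 increases and rests on a control level near the bottom of the table's scale. By the deposited log2 fold change Pan2 was ahead, at 5.44 against 5.41 for Acbd5.

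Ccdc28b encodes a coiled-coil protein that binds Bardet-Biedl syndrome proteins and acts in cilium formation. Ccdc28b-206 (chromosome 4, 129619275 to 129620915) starts with 39 bases of intron 3 and has 3 exons. The authors' deposited table gives a level of 26.0 for shPaupar cells, against 0.962 for control cells (ratio 27.0, log2 4.75, adjusted p 0.0424). This is the lowest level in the higher group and the largest adjusted p among the 9, and the largest adjusted p of all features in the authors' deposited table was 0.0471.

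**Figure D2:**
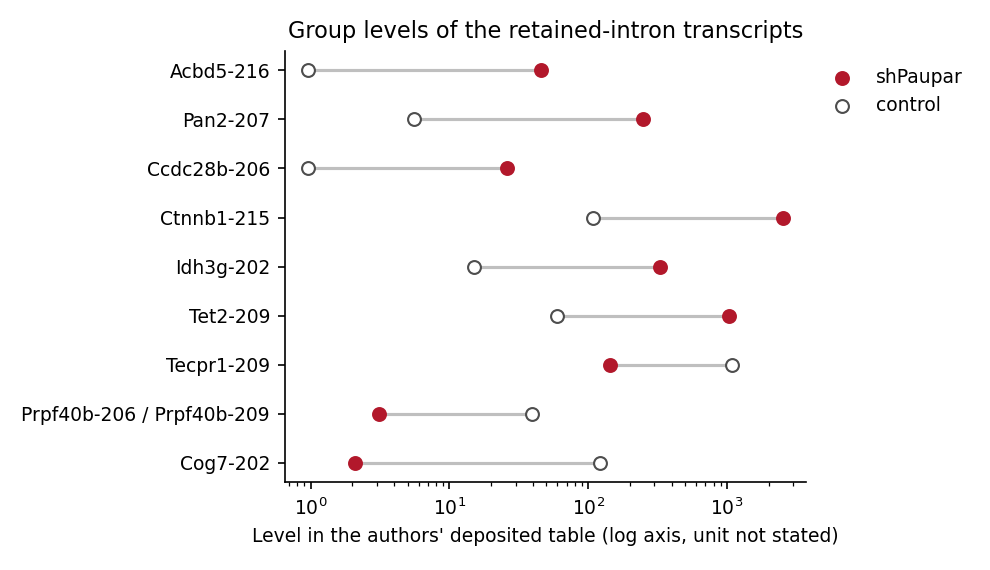
Levels of the 9 rows in the authors' deposited table, shPaupar as filled red points and control as open points, on a log axis whose unit is not stated, with no replicate error available. Acbd5-216, Pan2-207, Ccdc28b-206, Ctnnb1-215, Idh3g-202 and Tet2-209 have the red point to the right, and Tecpr1-209, Prpf40b and Cog7-202 have it to the left.

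Tecpr1 encodes a protein that takes part in the fusion of autophagosomes with lysosomes. Tecpr1-209 (chromosome 5, 144195351 to 144223547) has 24 exons, against 25 in the coding Tecpr1-201, covers 80.9% of its exon bases and differs inside by the kept intron 3 alone. The authors' deposited table gives a level of 144 for shPaupar cells, against 1083 for control cells, which is 7.51-fold lower after knockdown (log2 -2.91, adjusted p 0.0214). It had the highest control level of the 9 and the smallest absolute log2 ratio.

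Cog7 encodes a subunit of the conserved oligomeric Golgi complex, which tethers vesicles within the Golgi and is needed for normal glycosylation. Cog7-202 (chromosome 7, 121928910 to 121981694) has 16 exons and covers 72.7% of the exon bases of the coding Cog7-201. It includes an extra exon of 149 bases and ends 277 bases into intron 15. Per the authors' deposited table, shPaupar cells had a level of 2.08 and control cells 121, which is 58.2-fold lower after knockdown (log2 -5.86, adjusted p 0.00411).

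Prpf40b encodes a protein related to the yeast U1 snRNP component Prp40, which acts when the 5′ splice site is recognized. The Prpf40b row (chromosome 15, 99295241 to 99316114) had a level of 3.11 for shPaupar cells, against 39.3 for control cells, in the authors' deposited table, which is 12.7-fold lower after knockdown (log2 -3.66, adjusted p 0.00773). Both matching transcripts have 23 exons and keep intron 17. Prpf40b-209 also keeps intron 20 and has an extra exon of 198 bases.

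The errors of these ratios are wide. On the assumption, which the file does not state, that the authors' deposited p-values are those of a Wald test, the standard error of the log2 fold change had a median of 0.885 over the 9 rows and ran from 0.739 (Tecpr1) to 1.29 (Cog7). Over the 103 features whose locus equals a whole gene and that were above 0 in both groups, the median was 0.126. Each error was calculated from the fold change and p-value of its row, so at similar p-values a larger ratio gives a larger error. The contrast of these medians is therefore not separate evidence of noisier rows. Under the Wald assumption the 95% interval of the log2 fold change ran from 2.21 to 6.87 for Ctnnb1, from 3.98 to 6.90 for Pan2 and from -8.30 to -3.26 for Cog7. The intervals of the 6 increases overlapped each other, so their order by ratio is not resolved.

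**Figure D3:**
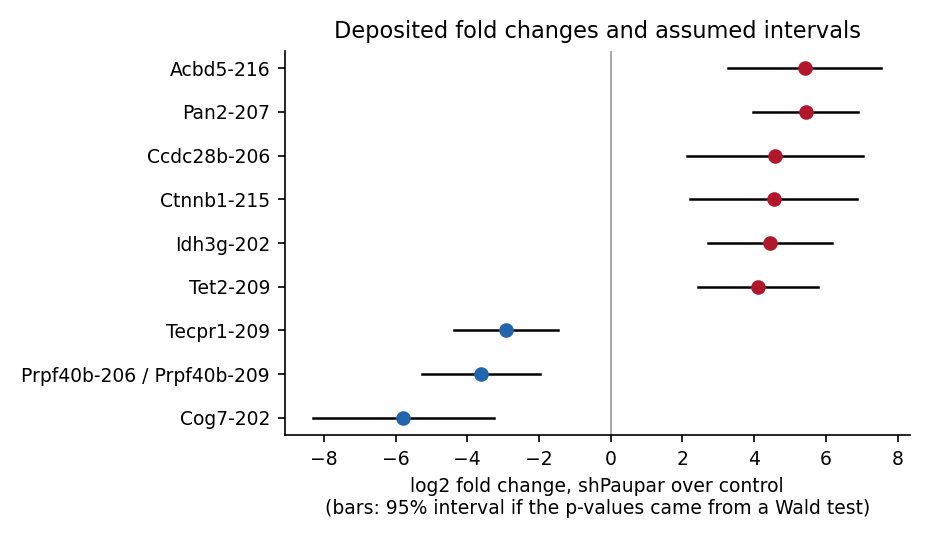
Log2 fold change (shPaupar over control) of the 9 rows in the authors' deposited table, with bars for the 95% interval that holds only if the p-values came from a Wald test. The 6 intervals above 0 overlap each other, and the 3 below 0 lie between -8.30 and -1.46.

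How the levels were scaled to transcript length is not stated. A control level of 0.962 is shared, within rounding at 6 digits, by Acbd5-216 (1410 bases), Ccdc28b-206 (428 bases) and the non-coding 6330403L08Rik-202 (5522 bases) in the authors' deposited table. Since transcripts of unequal length share this value, levels were taken as not yet divided by length, and were divided by spliced length to compare genes. Per kilobase, shPaupar cells had 1945 for Ctnnb1-215, 382 for Idh3g-202, 162 for Tet2-209, 73.2 for Pan2-207, 60.7 for Ccdc28b-206, 33.3 for Tecpr1-209, 32.5 for Acbd5-216 and 0.818 for Cog7-202. Control cells had 250.2 for Tecpr1-209, 83.5 for Ctnnb1-215, 47.6 for Cog7-202, 17.5 for Idh3g-202, 9.35 for Tet2-209, 2.25 for Ccdc28b-206, 1.64 for Pan2-207 and 0.682 for Acbd5-216. The Prpf40b row had 1.13 per kilobase in shPaupar and 14.4 in control cells with the length of Prpf40b-206, or 1.04 and 13.1 with that of Prpf40b-209. Ctnnb1-215 thus led in shPaupar cells and Tecpr1-209 in control cells per kilobase, and with 1 value per group the spread around this order is unknown.

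The transcripts that were higher and those that were lower in shPaupar cells differed in extent. The 6 higher transcripts spanned 1.29 to 12.1 kb of the genome (median 2.94 kb), had 1 to 6 exons and covered 11.1% to 55.6% of the exon bases of the principal coding transcript. The 3 lower rows spanned 20.9 to 52.8 kb (median 28.2 kb), had 16 to 24 exons and covered 72.7% to 80.9%. These ranges did not overlap for the 9 rows in any of the 3 measures, which all describe extent and are not separate contrasts. No test was made, because the rows were chosen with their direction known. Of all annotated retained-intron transcripts, 16.1% span over 20 kb. The medians over all of them are 4.01 kb, 3 exons and 15.9% of the exon bases of the principal coding transcript covered.

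The 9 other rows with a retained-intron locus split in the same numbers, 6 higher and 3 lower, but their extents overlapped. The higher ones spanned 0.937 kb (Krtcap3) to 55.3 kb (Lrrc9), and the lower ones 14.4 kb (Tnfaip3) to 355 kb (Grik1). Among these rows the median span was 3.63 kb for the higher and 140 kb for the lower ones. Exon counts overlapped too, at 3 to 25 for the higher and 7 to 23 for the lower ones. So did the covered share of the principal coding transcript, at 19.4% to 92.7% for the higher and 30.1% to 98.8% for the lower ones. Of these 9 rows 4 were listed at 0 in a group of the authors' deposited table, whereas all 9 rows described here were above 0 in both groups.

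**Figure D4:**
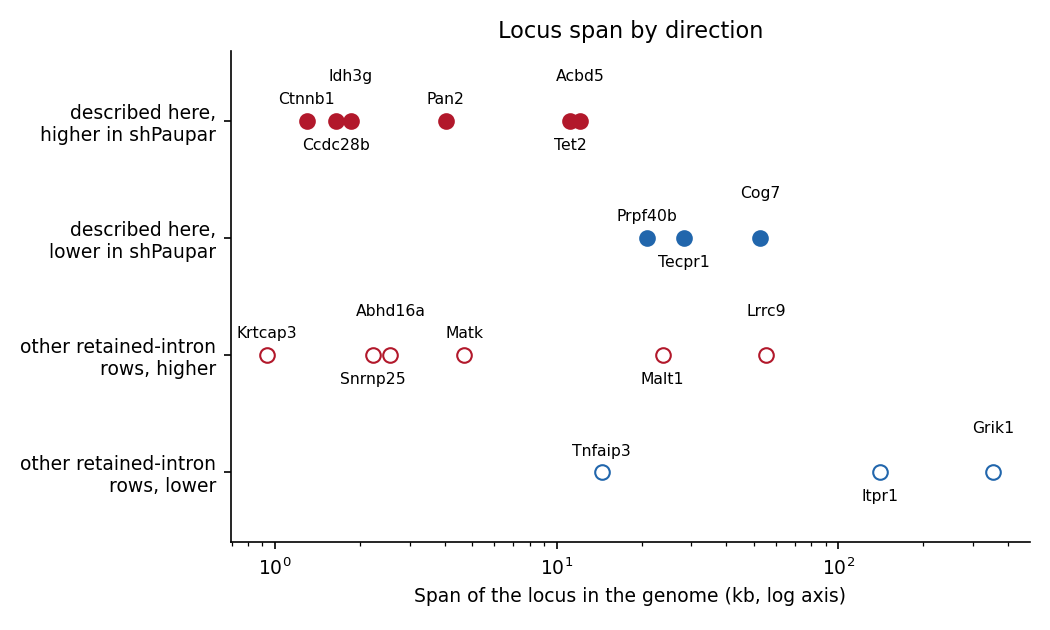
Genomic span of the locus in kb (log axis) for the 18 rows with a retained-intron locus, the 9 described here as filled points and the 9 others as open points, split by direction in shPaupar cells. The filled points do not overlap between directions (1.29 to 12.1 kb and 20.9 to 52.8 kb), while the open points do.

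The ratios of the 9 rows lay above the median of whole genes, whose range held theirs. Their absolute log2 ratio had a median of 4.54 (23.3-fold) and ran from 2.91 to 5.86, so all 9 reached 2, as did 22% of the 132 features above 0 in both groups. Nothing is read from this, since the rows were chosen on the same contrast. The other retained-intron rows above 0 in both groups, 5 in number, had a median of 3.11 (8.64-fold) and ran from 2.52 to 9.40. For whole genes above 0 in both groups, 103 in number, the median was 0.60 (1.52-fold) and the range 0.34 to 9.12, with 10 of them (9.71%) reaching 2, and 11 further whole-gene features were listed at 0 in a group. Level also differed: in the group where the row was higher, the median level was 249 over the 9 rows in the authors' deposited table, 141 over those 5 other retained-intron rows and 1607 over those 103 whole-gene features. The part of low level in the larger ratios was not tested.

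**Figure D5:**
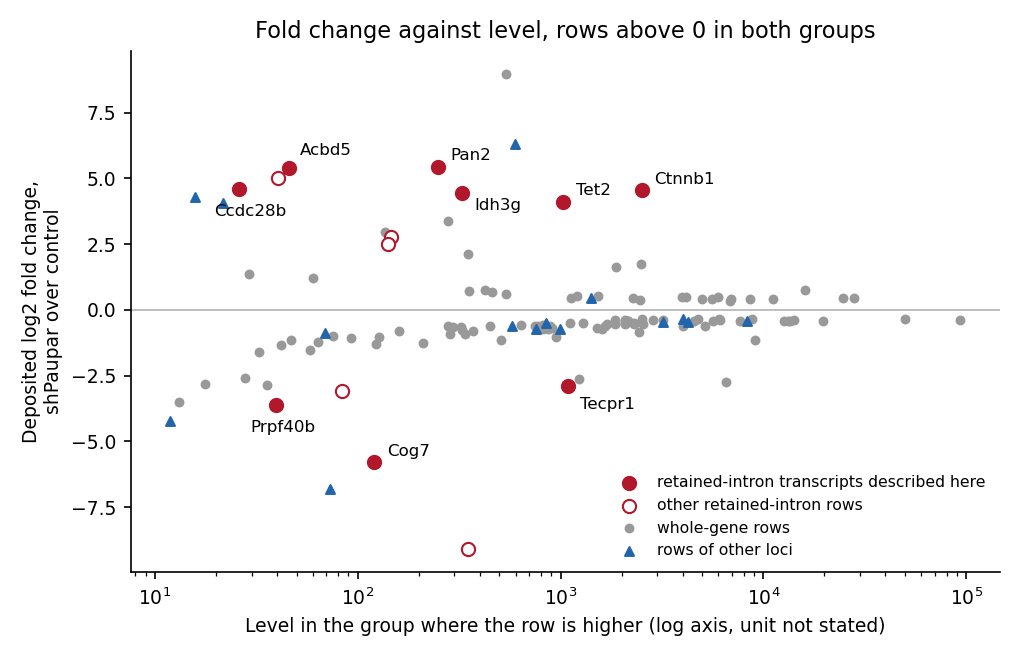
Log2 fold change (shPaupar over control) against the level in the group where the row is higher (log axis), for the 132 features above 0 in both groups of the authors' deposited table. The retained-intron rows described here (filled red) lie at absolute log2 ratios of 2.91 or more, whereas whole-gene features (grey) have a median of 0.60 and reach 9.12.

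Genes that act with the 9 host genes were looked up in 11 lists of partners. Of their 159 genes, 1 had a row in the authors' deposited table, and nothing is read from this count, because the share of all tested genes that reached the table is not given there. The gene with a row was Epg5, an autophagy gene of the same pathway as Tecpr1. The authors' deposited table has this row at 289 for shPaupar cells and lists it at 0 for control cells. Its locus equals neither the whole Epg5 gene nor an annotated retained-intron transcript, so the level of the whole gene is unknown in either group. No row was present for 21 genes of the core spliceosome, 30 SR proteins, kinases and other splicing regulators, 15 genes of nonsense-mediated decay and the exon junction complex, or 15 of deadenylation and the RNA exosome. The same held for 18 partners and targets of beta-catenin, 10 genes of DNA methylation, 10 of the COG complex and Golgi tethers, 8 of peroxisome contacts, 10 of the citric acid cycle and 10 of the BBSome and its neighbours. The table lists features with a low adjusted p, so a gene without a row has an unknown fold change and is not shown to be unchanged. None of the 9 host genes had a second row (0 genes), so the level of the whole gene beside its retained-intron transcript was not analysed here.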

How the data were processed

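RNA was measured by paired-end sequencing of 8 samples after removal of ribosomal RNA, per the labels' protocols. Tools listed in the submitters' processing notes are StringTie, TopHat2, HISAT, HISAT2 and CASAVA, with no role or version. Not given in the sources used here are strand use, the build, the counter and the statistical test. The authors deposited 1 table with 156 rows, in which each group has 1 level, a signal that the authors made with a normalization not stated. Its fold change is on the log2 scale, and its p-values and adjusted p-values come from a test that the file does not name. A repeated row was counted once, 1 row shifted by 1 column was realigned, and levels below 1e-10 were read as 0.

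Rows were matched by locus to GENCODE M21, whose transcript sequences (GRCm38) gave all sequences shown. Loci equalled annotated transcripts at both ends, which is why this build was used. Log2 ratios were computed from the deposited levels and differed from the deposited log2 fold changes by at most 0.17. Exon bases of each transcript were split into those inside and outside all exons of the gene's protein-coding transcripts. The principal coding transcript is the APPRIS principal one with the longest coding sequence. Standard errors assumed a Wald test and were back-calculated from each deposited p-value and log2 fold change. Both calculations were tested on simulated data. The simulated p-values were made with the Wald formula, so this checked the arithmetic and not whether the deposited p-values are of that kind.

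All 9 genes are named, together with partners that have a row. The members and lists were chosen with earlier results of these data known. No test between samples was possible with 1 value per group. Alternatives were other thresholds, minimum levels, pseudocounts, matching rules and, chosen after seeing the data, all 18 retained-intron rows. Calculations used Python 3.11.15, NumPy 2.4.6 and SciPy 1.17.1.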

Additional observations from a re-analysis of the deposited data

How the results depend on the processing

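At adjusted p up to 0.01, 4 transcripts were higher and 2 lower in shPaupar cells, and among those reaching a level of 100 in either group the counts were again 4 and 2. Among those reaching 10 in both groups, 3 were higher and 1 lower, since 5 of the 9 rows are under 10 in a group. A pseudocount of 10 lowered the median absolute log2 ratio to 3.44, against 4.36 with a pseudocount of 1 and 4.54 without one. The deposited fold changes, which come from the same groups, reversed the direction of 0 of 9 members. A pseudocount added to both groups cannot reverse a direction, so nothing on direction is read from that setting. With a pseudocount of 10, 5 of the 9 log2 ratios moved by more than their assumed standard error, and Ccdc28b had the smallest at 1.71. Over all 18 retained-intron rows the median span was 3.30 kb for higher and 40.5 kb for lower rows, but the ranges overlapped. The 18 include the 9 rows chosen with their direction known, so this is not a separate check. Matching within 10 bases cannot lose an exact match and left 9 of 9 matches, as did matching only to the named gene. Because the rows were chosen for such a match, nothing is read from these counts. No paired analysis was possible because the table gives 1 level per group and no value per sample, and for the same reason no sample could be left out. Depth is unknown, so low levels carry an unknown counting error.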
